A study of Mus musculus with 22 samples.

Results

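Poly-ADP-ribose polymerases (PARPs) were followed in the distal colon of 22 mice by RNA sequencing, together with Dtx3l, the ubiquitin ligase that binds Parp9. The members were chosen by gene symbol as ADP-ribosyl transferases that draw on NAD, and the 10 members (Parp1, Parp2, Parp3, Parp8, Parp9, Parp10, Parp11, Parp12, Parp14 and Dtx3l) were all found among the 46078 genes of the count table. Another 7 genes of the family (Zc3hav1, Tiparp, Parp4, Parp6, Parp16, Tnks and Tnks2) served for comparison. The groups were 8 C57BL/6 wild-type mice (4 males and 4 females, 14 weeks old), 7 Winnie mice (3 males and 4 females, 14 weeks old) and 7 Winnie mice with rectal prolapse, called Winnie-Prolapse (4 males and 3 females, 18 weeks old). Winnie and Winnie-Prolapse mice both carry a missense mutation of Muc2, the main colonic mucin gene, and their colitis is spontaneous, and no group received an agent. Each library came from 1 mouse according to the labels, and age and prolapse cannot be told apart because all the older mice had prolapse.

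PARPs split NAD into nicotinamide and ADP-ribose and attach the ADP-ribose to proteins or nucleic acids. Parp1 and Parp2 build long chains at DNA breaks, Parp3 adds single units at breaks, and most of the other members are mono-ADP-ribosyl transferases. Several members, with Parp9, Parp14 and Dtx3l first among them, are known as interferon-stimulated genes. In the inflamed colon, interferon-γ from lymphocytes is a known signal for genes of that kind in epithelium and in leukocytes.

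Libraries held 24.8 to 36.3 M counts, so that a count of 0 allowed up to 0.0825 to 0.121 CPM (counts scaled to the library total), and the members themselves had from 76 counts (Parp8) to 9885 counts (Parp14) in a library. These limits cover counting error only. Muc2 ranged from 1029 to 3254 CPM in Winnie and from 2505 to 7901 CPM in C57BL/6. The 7901 CPM was C57BL/6 replicate 7 alone, and the next highest C57BL/6 library, replicate 4, had 3893 CPM. Counts cannot show the base change and so do not check the genotype. Winnie-Prolapse replicate 6 stood apart, with 18.9% of its counts in 7 milk protein genes against at most 0.00589% in the other 21 libraries. Its CPM of all other genes are lower for it, since totals include these counts. C57BL/6 replicate 7 also stood apart in its group, with the lowest leukocyte marker sum and the highest epithelial marker sum. The counts of members called below were the same without either of these libraries (7 in Winnie-Prolapse against C57BL/6).

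Parp14, Dtx3l and Parp9 lie side by side on mouse chromosome 16 (GRCm38, GENCODE M21). Parp14 was annotated at chr16:35832874-35871544 on the minus strand, Dtx3l at chr16:35926511-35939151 on the minus strand and Parp9 at chr16:35938470-35972605 on the plus strand. Dtx3l and Parp9 start head to head, and 458 bases of their exons overlap on opposite strands, which is 9.40% of the exon length of Parp9 and 8% of that of Dtx3l. The strand setting of the counting was not stated, so reads of that overlap may have been counted for either gene or for neither. The other members lie elsewhere, Parp1 at chr1:180568924-180601254, Parp2 at chr14:50807841-50821301, Parp3 at chr9:106470322-106476949, Parp8 at chr13:116854820-117025537, Parp10 at chr15:76231174-76243441, Parp11 at chr6:127446840-127494261 and Parp12 at chr6:39086410-39118349. Parp10 shares 205 exon bases (4.80%) with Plec and Parp14 shares 110 (1.18%) with Gm49730, both on the same strand. Parp3 shares 20 exon bases with Rrp9 on the other strand and Parp1 shares 7 with Mir6904 on its own strand.

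Promoter windows of RefSeq (GRCm38.p6), from 250 bases before to 50 bases after a start, were matched for 7 of the 10 members (Parp1, Parp2, Parp3, Parp8, Parp11, Parp12 and Dtx3l; 8 windows). They were searched on both strands for the core of the interferon-stimulated response element, spelt GAAANNGAA, and for the gamma-activated site, spelt TTCNNNGAA, the binding sequences of interferon-activated factors. The first was present in 8.56% and the second in 8.30% of 32851 windows of all genes, and 1.07% held both. Among the 8 windows only the upstream one of Parp11 held either, and it held both. The reverse-strand match to the first motif began 43 bases before the start and the match to the second began 37 bases before it. These matches overlap, and the capitals show all letters covered by either match. The stretches below are those parts of 3 windows that lie outside every annotated exon, chosen after the search. Parp11 is shown because it held the matches, Dtx3l as the gene of the chromosome 16 trio that had a window, and Parp12 as the member of highest level. The Parp11 stretch is chr6:127446590-127446839 (plus strand), the Dtx3l stretch is chr16:35939207-35939277 (minus strand) and the Parp12 stretch is chr6:39118350-39118472 (minus strand).
Parp11: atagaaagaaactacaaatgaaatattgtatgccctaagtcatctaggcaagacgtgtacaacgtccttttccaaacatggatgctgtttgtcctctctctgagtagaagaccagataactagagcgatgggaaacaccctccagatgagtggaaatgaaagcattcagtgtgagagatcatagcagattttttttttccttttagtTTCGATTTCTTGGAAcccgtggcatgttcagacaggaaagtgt
Dtx3l: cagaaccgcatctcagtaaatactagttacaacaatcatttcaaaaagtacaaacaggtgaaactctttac
Parp12: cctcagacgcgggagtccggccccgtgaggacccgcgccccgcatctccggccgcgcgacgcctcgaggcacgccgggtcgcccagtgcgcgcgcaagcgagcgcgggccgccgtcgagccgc
No capitals in the Dtx3l and Parp12 stretches means that these letters were not found in the windows searched.

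In C57BL/6 colon the members covered a wide range of levels once scaled to the length of their exons. Parp12, a mono-ADP-ribosyl transferase, was the highest at 31.8 ± 2.97 CPM per kb (SD, n = 8), and no library overlapped with the next member. Dtx3l (12.3 ± 1.32), Parp9 (11.6 ± 1.10), Parp3 (9.11 ± 1.76), Parp14 (7.53 ± 1.27), Parp2 (6.97 ± 0.654), Parp10 (6.19 ± 0.515) and Parp1 (6.002 ± 0.840) followed in CPM per kb, and each of these overlapped with its neighbour in that order. Parp11 (1.76 ± 0.361) and Parp8 (0.373 ± 0.0616) were lowest and did not overlap with the member above them. Parp12 alone made up 33.9% ± 2.05 of the length-scaled sum of the 10 members.

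The order of the first 5 members on the length-scaled axis was the same in all 3 groups, but the distance between Parp12 and the others was not. The length-scaled sum of the members was 93.7 ± 5.41 CPM per kb in C57BL/6 (SD, n = 8), 159 ± 40.1 in Winnie (SD, n = 7) and 187.0 ± 37.2 in Winnie-Prolapse (SD, n = 7). Parp12 was 34.1% ± 5.64 of that sum in Winnie and 26.2% ± 5.31 in Winnie-Prolapse. Over the same groups Dtx3l went from 13.2% ± 0.781 in C57BL/6 to 15.8% ± 3.65 in Winnie and 18.3% ± 3.03 in Winnie-Prolapse, and Parp14 from 7.99% ± 1.02 to 9.9998% ± 2.004 and 12.0% ± 2.17. The share of Parp1 went the other way, from 6.40% ± 0.749 to 3.95% ± 0.943 and 3.13% ± 0.843. Its own level was 6.002, 5.99 and 5.68 CPM per kb in the same order, under a larger sum. The ranges of Parp12 and Dtx3l did not overlap in C57BL/6 but did in Winnie and in Winnie-Prolapse.

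**Figure D1:**
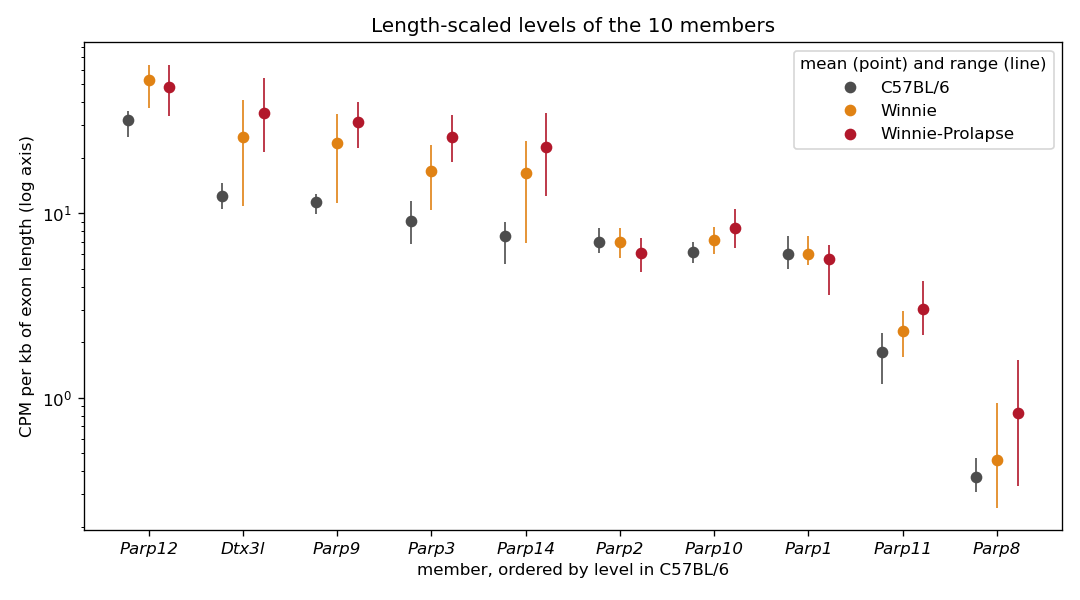
Length-scaled levels of the 10 members, in CPM per kb of exon length on a log axis, with the group mean as a point and the range over libraries as a line. Parp12 was the highest member in each group (31.8, 52.4 and 48.5 CPM per kb) and Parp8 the lowest (0.373, 0.459 and 0.829).

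Winnie was compared with C57BL/6 to ask how the members stand in chronic colitis at the same age. Genes were called at an adjusted p under 0.001 and at least 1.5-fold, and a second limit was an adjusted p under 0.05 at the same fold. At the first limit 0 of the 10 members were called in edgeR, against 0.0868% of 17289 genes called higher and 0.00578% called lower. Of the members, 7 had an unadjusted p under 0.05, as did 39.9% of all genes. At the first limit limma-voom called 0 members and 0% of genes, and DESeq2 called 5 members higher, against 3.71% of genes higher and 2.23% lower in its own fit. At the second limit 5 members rose (Parp14, Dtx3l, Parp9, Parp3 and Parp12), a share to set beside 7.42% of all genes higher and 8.53% lower, and 0 members fell. The median log2 fold change of the members was 0.63 and that of all genes -0.01.

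Winnie-Prolapse was compared with C57BL/6 to ask the same of colitis with prolapse. Here 7 of the 10 members were called, all higher (Parp14, Dtx3l, Parp3, Parp9, Parp8, Parp11 and Parp12), against 9.84% of 17397 genes called higher and 8.47% called lower. The count was also 7 at the second limit, where 16.7% of all genes were higher and 17.7% lower. An unadjusted p under 0.05 was found for 8 members and 58.5% of all genes. The median log2 fold change was 1.03 for the members and -0.01 for all genes. The 2 comparisons share the C57BL/6 libraries, so their likeness is not independent evidence.

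Winnie-Prolapse against Winnie asked what went with prolapse and greater age. At the first limit 0 members were called, as were 0% of 17041 genes higher and 0% lower. At the second limit edgeR found 0 members, against 4.27% of genes higher and 2.72% lower, while 4 members had an unadjusted p under 0.05 (Parp3, Parp8, Parp11 and Parp2), as did 27.8% of all genes. Limma-voom also found 0 members at the second limit, against 2.93% of genes higher and 2.15% lower, and DESeq2 found Parp3 and Parp8, both higher, against 7.88% of genes higher and 4.17% lower. In the edgeR fit of these 2 groups with both sexes, the smallest adjusted p of a member was 0.058, for Parp3. That of Parp3 was 0.022 in DESeq2 and 0.051 in limma-voom.

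**Figure D2:**
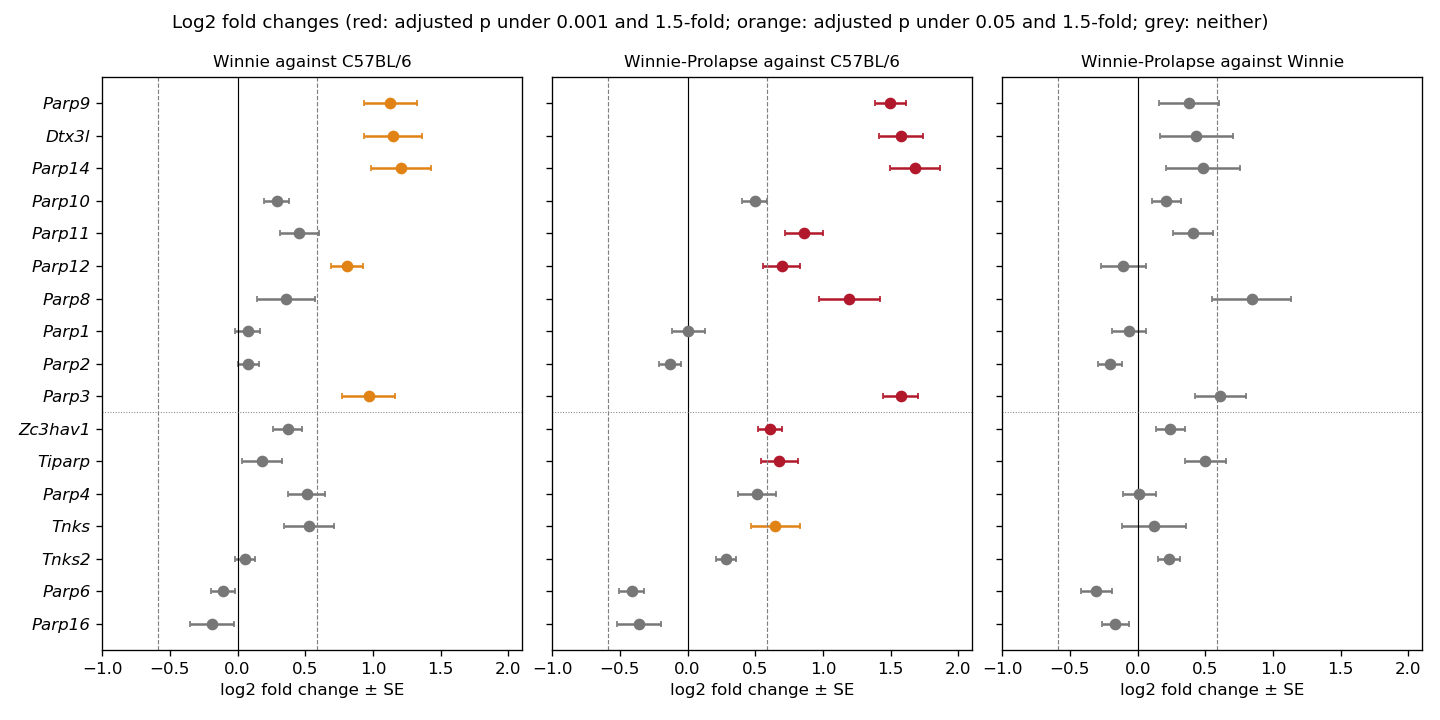
Log2 fold change (point) with its standard error (bar) in each of the 3 comparisons, the 10 members above the dotted line and the 7 other family genes below it, with the 1.5-fold limits dashed. In Winnie-Prolapse against C57BL/6, 7 members and 2 of the other genes passed an adjusted p of 0.001 and 1.5-fold.

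The interferon-linked trio of chromosome 16 held the 3 largest log2 fold changes of the members in Winnie and 3 of the 4 largest in Winnie-Prolapse, with Parp3 as the other, in fits of both sexes. Parp9, which binds ADP-ribose through macrodomains and partners with Dtx3l, lay between 48.3 and 61.9 CPM in C57BL/6 (median 58.4), between 55.3 and 167 CPM in Winnie (median 136) and between 110.0 and 196 CPM in Winnie-Prolapse (median 152). Winnie-Prolapse did not overlap with C57BL/6, and 6 of 7 Winnie libraries lay above every C57BL/6 library. The log2 fold change was 1.13 ± 0.20 (SE) in Winnie (adjusted p = 0.0024) and 1.498 ± 0.112 in Winnie-Prolapse (adjusted p = 1.2e-07).

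Dtx3l, which attaches ubiquitin to histones and other proteins, ranged from 60.4 to 83.4 CPM in C57BL/6 (median 70.3). It ranged from 62.4 to 234 CPM in Winnie (median 171) and from 123 to 308 CPM in Winnie-Prolapse (median 170). As for Parp9, 6 of 7 Winnie libraries lay above the C57BL/6 range and the Winnie-Prolapse libraries all did. Against C57BL/6 the log2 fold change was 1.15 ± 0.21 in Winnie (adjusted p = 0.0035) and 1.58 ± 0.16 in Winnie-Prolapse (adjusted p = 2.7e-06).

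Parp14, a macrodomain transferase known from interleukin-4 and interferon responses, had the largest fold of all members in both comparisons with C57BL/6 when both sexes were fitted, but not in females alone. It ranged from 49.4 to 83.8 CPM in C57BL/6 (median 70.9), from 64.0 to 228 CPM in Winnie (median 171) and from 116 to 323 CPM in Winnie-Prolapse (median 219). Fitted log2 fold changes were 1.21 ± 0.22 in Winnie (adjusted p = 0.0034), or 2.31-fold, and 1.68 ± 0.18 in Winnie-Prolapse (adjusted p = 4.1e-06), or 3.20-fold. Winnie-Prolapse did not overlap with C57BL/6.

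No difference between the neighbours in how far they moved was detected. The log2 ratio of Parp9 to Dtx3l counts in a library was -0.33 ± 0.07 in C57BL/6 (SD, n = 8), -0.32 ± 0.21 in Winnie (SD, n = 7) and -0.36 ± 0.23 in Winnie-Prolapse (SD, n = 7). The log2 ratio of Parp14 to Parp9 was 0.30 ± 0.17, 0.37 ± 0.17 and 0.45 ± 0.25 in the same order. In two-sided exact permutation tests of the 2 ratios over 3 comparisons the adjusted p was at least 0.89, and the largest difference was 0.15 on the log2 scale (Parp14 to Parp9, Winnie-Prolapse against C57BL/6).

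Within groups, Parp9 was related to each of its neighbours from mouse to mouse, except that the relation with Parp14 in C57BL/6 was not seen without 2 libraries. Pearson's r of log2 CPM between Parp9 and Dtx3l was 0.875 in C57BL/6 (Spearman's rho 0.905), 0.959 in Winnie (rho 0.893) and 0.900 in Winnie-Prolapse (rho 0.929), with adjusted exact permutation p of at most 0.015 for r and 0.022 for rho over 9 relations. Between Parp9 and Parp14, r was 0.790 in C57BL/6 (rho 0.714), 0.972 in Winnie (rho 0.893) and 0.906 in Winnie-Prolapse (rho 0.893). Without the 2 libraries farthest from the Parp9 median, r of Parp9 and Dtx3l was 0.728, 0.863 and 0.884. For Parp9 and Parp14 it was 0.013 in C57BL/6 but 0.903 in Winnie and 0.980 in Winnie-Prolapse. Leaving out these libraries narrows the range of Parp9, which can lower r by itself, so the 0.013 cannot show what the relation rested on. The exact permutation p of Parp9 and Parp14, adjusted over the 9 relations, was 0.031 for r and 0.086 for rho in C57BL/6 and 0.014 for r in each of the other groups.

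With Parp1 in place of a neighbour, r with Parp9 was 0.359 in C57BL/6 (rho 0.262), 0.408 in Winnie (rho 0.179) and 0.281 in Winnie-Prolapse (rho -0.071). The adjusted exact permutation p was at least 0.43 for r and 0.69 for rho. Without the 2 libraries farthest from the Parp9 median, r was -0.251, 0.183 and -0.210.

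**Figure D3:**
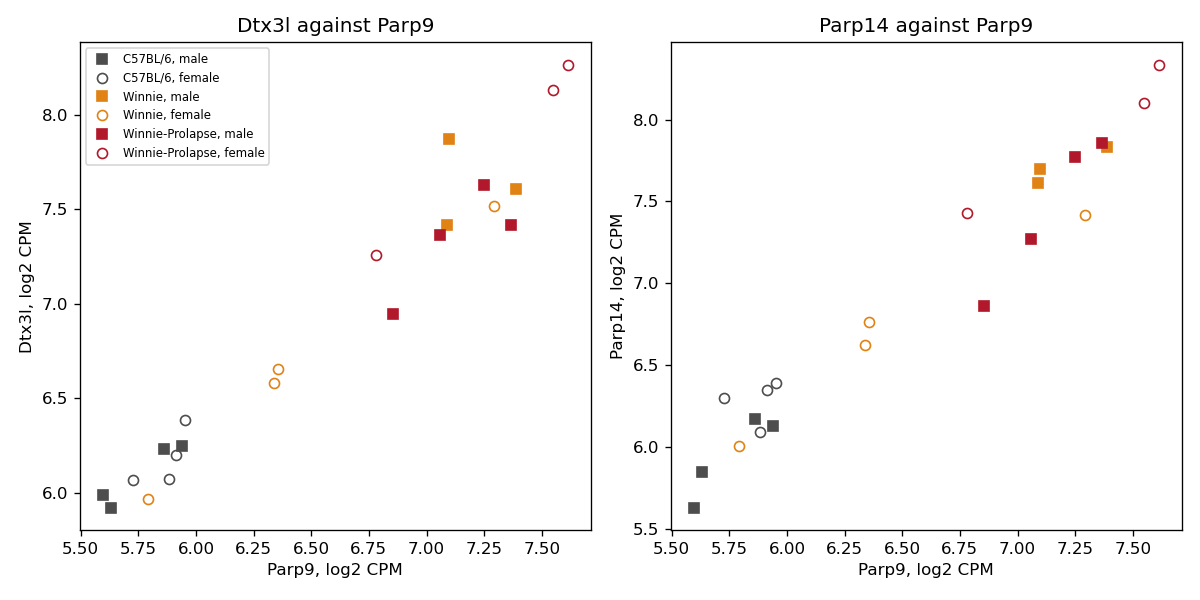
Log2 CPM (prior count 2) of Dtx3l and of Parp14 against Parp9 in the 22 libraries, squares for males and open circles for females. Winnie-Prolapse libraries lie above all C57BL/6 libraries for each of the 3 genes, and 1 Winnie library, replicate 5, lies among C57BL/6.

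Within 200 kb of either side of the trio, 8 other genes were tested against C57BL/6. None of these 8 was called in either comparison, and in Winnie-Prolapse 9.84% of all genes were called higher and 8.47% lower, so that 0 of 8 does not set the neighbours apart. In Winnie-Prolapse 2 of the 8 had an adjusted p under 0.05, against 52.5% of all genes, the transporter gene Dirc2 at a log2 fold change of 0.31 ± 0.13 and Gm15564, a predicted gene that overlaps the Parp9 span, at -1.60 ± 0.51. The neighbours were taken by position, not by the rule for named genes. In Winnie 0 of the 8 had an adjusted p under 0.05, against 25.7% of all genes.

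Among 17769 genes, those whose log2 CPM ranked most like Parp9 over the 22 libraries were Irgm2, Ifi47, Dtx3l (each with Spearman's rho 0.966), Parp14 (0.964) and Irgm1 (0.962). For Parp14 they were Gm12250 (0.973), Parp9 and Irgm2 (0.964 each), and Znfx1 and Irgm1 (0.960 each). Irgm1, Irgm2 and Ifi47 encode interferon-inducible GTPases. With Parp9, rho was 0.862 for Parp10, 0.822 for Parp3, 0.811 for Parp11, 0.805 for Parp12 and 0.607 for Parp8. It was 0.071 for Parp1 and -0.197 for Parp2. These values pool groups of different level and are a description.

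For Parp1 the genes most alike were Nup214 (0.880), Ppp1r3e (0.853), Snrnp200 (0.852), Smc3 (0.841) and Nbn (0.825). Of these, Nbn encodes a sensor of DNA breaks, Smc3 a cohesin subunit and Snrnp200 a spliceosome helicase. The rho of Parp1 with Parp2 was 0.350, with Parp9 0.071 and with Parp3 -0.110. Over all other members it ran from -0.220 (Parp12) to 0.389 (Parp8).

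Against C57BL/6, Parp12, Parp11, Parp10 and Parp8 had smaller log2 fold changes than the trio in fits of both sexes. Parp12, which is known to be induced by interferon and to restrain viruses, ranged from 104 to 144 CPM in C57BL/6 (median 128), from 148 to 255 CPM in Winnie (median 209) and from 135 to 254 CPM in Winnie-Prolapse (median 196). It was the single member whose Winnie libraries did not overlap with C57BL/6, as was true of 0.463% of all genes in the higher direction. The log2 fold change was 0.81 ± 0.12 in Winnie (adjusted p = 0.0012) and 0.70 ± 0.14 in Winnie-Prolapse (adjusted p = 0.00057), and -0.11 ± 0.17 in Winnie-Prolapse against Winnie (adjusted p = 0.72). The call in Winnie-Prolapse held in 4 of 15 fits that left out 1 library, with an adjusted p of up to 0.0023.

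Parp11, a nuclear envelope transferase, ranged from 8.38 to 15.8 CPM in C57BL/6 (median 13.1), from 11.7 to 20.6 CPM in Winnie (median 16.7) and from 15.4 to 30.1 CPM in Winnie-Prolapse (median 19.7). The groups overlapped, with 6 of 7 Winnie-Prolapse libraries above every C57BL/6 library. The log2 fold change against C57BL/6 was 0.46 ± 0.14 in Winnie (adjusted p = 0.029) and 0.86 ± 0.14 in Winnie-Prolapse (adjusted p = 0.00016).

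Parp10, known for restraining growth and NF-κB signalling, ranged from 23.0 to 29.8 CPM in C57BL/6 (median 26.9), from 25.7 to 35.8 CPM in Winnie (median 32.0) and from 27.7 to 45.3 CPM in Winnie-Prolapse (median 33.3). Its log2 fold change in Winnie-Prolapse, 0.49 ± 0.09, had an adjusted p of 0.00032 but was under 1.5-fold, and in Winnie it was 0.29 ± 0.09 (adjusted p = 0.030). The shared exon bases with Plec make its counts less certain.

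Parp8, the lowest member, ranged from 2.75 to 4.20 CPM in C57BL/6 (median 3.06), from 2.24 to 8.33 CPM in Winnie (median 3.36) and from 2.97 to 14.3 CPM in Winnie-Prolapse (median 6.92). Winnie replicate 2 and Winnie-Prolapse replicate 4 were the highest of their groups. Its log2 fold change was 0.36 ± 0.21 in Winnie (adjusted p = 0.22) and 1.20 ± 0.23 in Winnie-Prolapse (adjusted p = 0.00046), where 6 of 7 libraries lay above C57BL/6. Without Winnie replicate 2 the value in Winnie was 0.11 (adjusted p = 0.64). The call in Winnie-Prolapse held in 9 of 15 fits that left out 1 library, with an adjusted p of up to 0.0013, and was lost with limma-voom and with library totals without TMM (adjusted p = 0.0014 in each). In Winnie-Prolapse against Winnie it had the largest log2 fold change of the members in fits of both sexes, 0.84 ± 0.29 (adjusted p = 0.080).

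Of Parp1, Parp2 and Parp3, which act at DNA breaks, Parp3 alone was called in Winnie-Prolapse against C57BL/6. Parp3, which takes part in the repair of double-strand breaks, ranged from 25.2 to 43.1 CPM in C57BL/6 (median 35.0), from 38.3 to 86.5 CPM in Winnie (median 62.3) and from 70.3 to 126 CPM in Winnie-Prolapse (median 94.9). Winnie-Prolapse did not overlap with C57BL/6, and 5 of its 7 libraries lay above every Winnie library. Tested against C57BL/6, the log2 fold change was 0.97 ± 0.20 in Winnie (adjusted p = 0.0048), 1.57 ± 0.13 in Winnie-Prolapse (adjusted p = 3.1e-07), and Winnie-Prolapse against Winnie gave 0.61 ± 0.19 (adjusted p = 0.058).

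Parp1, the main source of poly-ADP-ribose at breaks, ranged from 26.4 to 39.8 CPM in C57BL/6 (median 30.7), from 27.7 to 39.8 CPM in Winnie (median 29.0) and from 19.03 to 35.7 CPM in Winnie-Prolapse (median 32.5). The groups overlapped. Its log2 fold change was 0.07 ± 0.09 in Winnie (95% interval -0.11 to 0.25) and 0.01 ± 0.12 in Winnie-Prolapse (interval -0.24 to 0.25). Both turned below 0 when libraries were scaled by their totals without TMM factors. With that change the median log2 fold change of all genes moved as well, by -0.081 in Winnie and -0.067 in Winnie-Prolapse.

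Parp2, which shares much of the work of Parp1, ranged from 22.2 to 30.3 CPM in C57BL/6 (median 25.0), from 20.8 to 30.3 CPM in Winnie (median 26.1) and from 17.5 to 26.5 CPM in Winnie-Prolapse (median 21.2). Its log2 fold change was 0.08 ± 0.08 in Winnie (interval -0.07 to 0.23) and -0.13 ± 0.08 in Winnie-Prolapse (interval -0.29 to 0.03). These intervals lie inside the 1.5-fold limits.

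In Winnie-Prolapse against C57BL/6 the groups did not overlap for 4 members (Parp9, Dtx3l, Parp14 and Parp3), all higher, as was true of 6.5% of all genes. Parp12 and Parp10 overlapped through Winnie-Prolapse replicate 6 alone, whose total includes the milk protein counts. It had 135 CPM of Parp12 and 27.7 CPM of Parp10. The next lowest Winnie-Prolapse libraries had 147 and 30.7 CPM, and the highest C57BL/6 libraries 144 and 29.8 CPM. The share of all genes without this library is not given here. In Winnie-Prolapse against Winnie the groups overlapped for all 10 members, and 0.411% of all genes were higher without overlap.

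**Figure D4:**
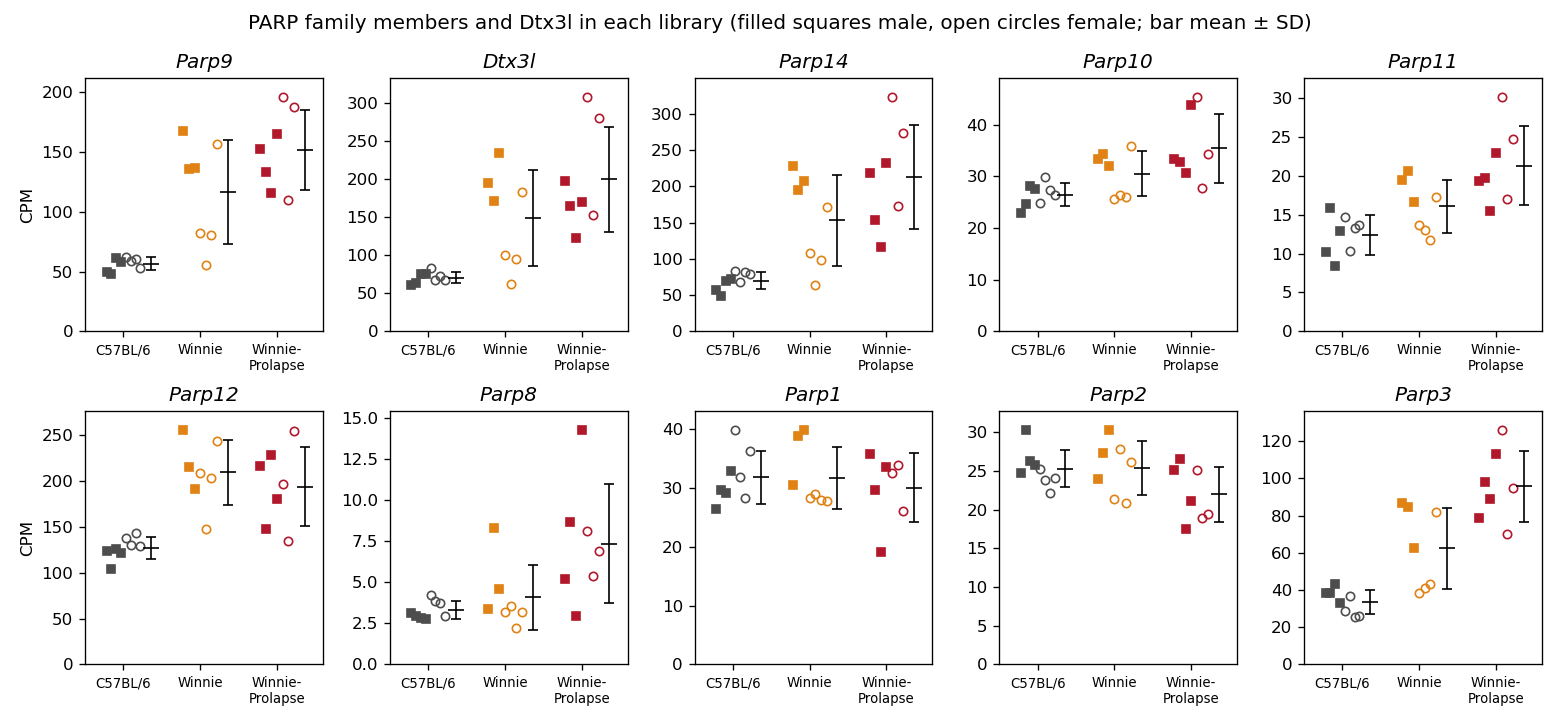
CPM of each member in every library by group, filled squares for males and open circles for females, with the group mean and SD at the right of each group. The Winnie group is spread widely for Parp9, Dtx3l, Parp14 and Parp3, and Parp1 and Parp2 overlap across the groups.

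The Winnie libraries differed from one another more than the C57BL/6 libraries for the members that rose. The coefficient of variation over libraries was 37.2% for Parp9, 42.2% for Dtx3l, 40.9% for Parp14 and 34.8% for Parp3 in Winnie, and 9.53%, 10.7%, 16.9% and 19.3% in C57BL/6. Winnie replicate 5 was the lowest Winnie library for 4 members (Parp9, Dtx3l, Parp14 and Parp12) and lay inside the C57BL/6 range for 9 of 10 members. Without it, 4 members (Parp9, Dtx3l, Parp14 and Parp12) were called higher in Winnie against C57BL/6 where 0 were called with it, and the share of all genes called higher went from 0.0868% to 2.5% (1.38% were called lower). Winnie replicate 5 also had the lowest Winnie sums of epithelial, B cell, macrophage, neutrophil and proliferation markers and of interferon pathway genes. The lowest Winnie sums of pan-leukocyte (121 CPM) and T cell genes (11.6 CPM) were in replicate 3, and that of smooth muscle genes in replicate 6. The part of these lists in the levels of replicate 5 was not tested.

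**Figure D5:**
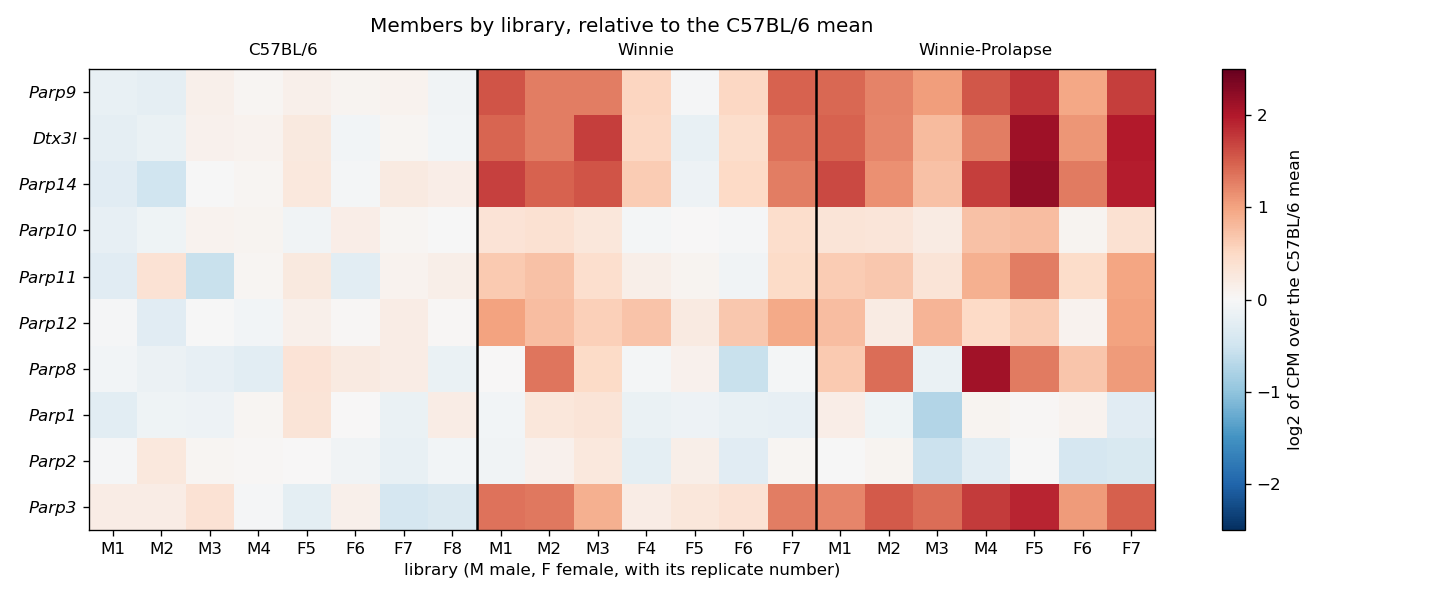
Log2 of the CPM of each member over its C57BL/6 mean, 1 column per library (M male, F female, with the replicate number). Winnie males M1 to M3 and female F7 are high for the chromosome 16 trio and Parp3, while F5 is near the C57BL/6 mean, and the trio is high in all Winnie-Prolapse libraries.

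Sex was compared because both sexes were present in each group. With group in the fit, 0 of the 10 members differed between males and females at an adjusted p under 0.05, against 0.0793% of 18911 genes, and 0 members had an unadjusted p under 0.05 in edgeR, DESeq2 or limma-voom. The sex by group interaction reached an adjusted p under 0.05 for 0 members in edgeR, as for 0% of all genes, although 3 members had an unadjusted p under 0.05, Parp14 (0.0023), Dtx3l (0.0037) and Parp11 (0.026), as did 12.7% of all genes. Their adjusted p was 0.27, 0.28 and 0.35. Limma-voom also gave 0 members, DESeq2 gave 1, Parp14, against 0.851% of genes, and leaving out Winnie replicate 7 gave 2, Parp14 and Dtx3l, against 0.206% of genes.

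The mean of these 3 members was higher in males in Winnie and higher in females in Winnie-Prolapse. Parp14 was 210 ± 16.2 CPM in the 3 Winnie males (196 to 228) and 111 ± 44.6 CPM in the 4 Winnie females (64.0 to 171), without overlap. In Winnie-Prolapse it was 180 ± 54.7 CPM in males and 257 ± 76.9 CPM in females, with overlap. Dtx3l was 199.9 ± 31.8 CPM in Winnie males and 110.4 ± 51.3 CPM in Winnie females, and 164 ± 30.8 and 247 ± 82.6 CPM in Winnie-Prolapse males and females. In C57BL/6, Parp14 was 62.1 ± 10.7 CPM in males and 78.0 ± 6.92 CPM in females, with overlap. In fits of 1 sex alone, which use the C57BL/6 libraries of that sex, the log2 fold change of Parp14 in Winnie was 1.79 in males and 0.63 in females.

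The other PARP family genes were described by the same limits. In Winnie-Prolapse 2 of the 7 were called higher and 0 lower, against 9.84% and 8.47% of all genes. In Winnie none of the 7 was called, and 3 had an unadjusted p under 0.05 (Parp4, Zc3hav1 and Tnks), against 39.9% of all genes. Zc3hav1, the antiviral zinc finger protein, ranged from 101 to 133 CPM in C57BL/6 (median 116) and from 150 to 196 CPM in Winnie-Prolapse (median 169), without overlap, at a log2 fold change of 0.61 ± 0.09 (adjusted p = 4e-05). Tiparp, a transferase induced by the aryl hydrocarbon receptor, ranged from 16.2 to 28.7 CPM and from 25.5 to 47.2 CPM, at 0.68 ± 0.14 (adjusted p = 0.00077). Both calls were lost when libraries were scaled by their totals, at 0.54 for Zc3hav1, under 1.5-fold, and at an adjusted p of 0.0024 for Tiparp.

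Of the others, Tnks, a tankyrase of Wnt signalling, passed the second limit in Winnie-Prolapse (0.65 ± 0.18, adjusted p = 0.0071). Parp4, the vault PARP, stood at 0.51 ± 0.14 (adjusted p = 0.0066) and Tnks2 at 0.28 ± 0.07 (adjusted p = 0.0048). Parp6 stood at -0.41 ± 0.09 (adjusted p = 0.0019) and Parp16, of the endoplasmic reticulum, at -0.36 ± 0.16 (adjusted p = 0.076). Whether the members and these genes differ as sets was not tested.

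Part of the interferon pathway list rose as well. Of 14 tested genes, 6 were called higher and 0 lower in Winnie-Prolapse, against 9.84% and 8.47% of all genes, with a median log2 fold change of 0.49. In Winnie 4 of 13 passed the second limit higher and 0 lower, against 7.42% and 8.53% of all genes, with a median of 0.31. Irf1, an interferon-induced transcription factor, had a log2 fold change of 1.09 ± 0.22 in Winnie (adjusted p = 0.0050) and 1.38 ± 0.13 in Winnie-Prolapse (adjusted p = 1.4e-06).

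The ligand Ifng had 2 counts in all C57BL/6 libraries together, with 6 of 8 at 0, against 143 counts in Winnie and 880 counts in Winnie-Prolapse, where no library was at 0. It ranged from 0.034 to 2.02 CPM in Winnie and from 1.39 to 10.2 CPM in Winnie-Prolapse. Ifnb1, a type I ligand, was at 0 in 21 of 22 libraries. The abundant receptor genes Ifngr1 and Ifngr2 and the kinase gene Jak1 were not called in either comparison with C57BL/6, and Ifngr1 stood at -0.44 ± 0.14 in Winnie-Prolapse (adjusted p = 0.012).

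Of the genes that remove ADP-ribose, 0 of 6 tested were called higher and 1 lower in Winnie-Prolapse, near the 9.84% and 8.47% of all genes, with a median log2 fold change of -0.11. Over 2 alternative fits 1 to 3 genes of the list were called. The one called was Macrod2, a hydrolase of single ADP-ribose units, at -0.90 ± 0.15 (adjusted p = 0.00016), and its relative Macrod1 passed the second limit at -0.95 ± 0.22 (adjusted p = 0.0020). Macrod2 was named after its values were seen. Parg, the main hydrolase of the chains, stood at 0.31 ± 0.09 (adjusted p = 0.0073), Adprh at 0.13 ± 0.10 and Oard1 at -0.07 ± 0.11. In Winnie 0 of the 6 were called, 3 had an unadjusted p under 0.05, against 39.9% of all genes, and Macrod1 stood at -0.77 ± 0.20 (adjusted p = 0.013).

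Of 9 partners of Parp1 and Parp2 in break repair, 0 were called in Winnie or Winnie-Prolapse against C57BL/6, with median log2 fold changes of 0.03 and 0.13. An unadjusted p under 0.05 was found for 3 of them in Winnie and 4 in Winnie-Prolapse, against 39.9% and 58.5% of all genes, so these counts do not set the list apart. In Winnie-Prolapse the ligase Lig3 stood at 0.26 ± 0.12, the remodeller Chd1l at 0.17 ± 0.12 and the scaffold Xrcc1 at -0.12 ± 0.08. Of the relatives of Dtx3l, 0 of 4 Deltex genes passed either limit in Winnie-Prolapse, and 3 had an unadjusted p under 0.05, against the same 58.5%. There Dtx4 stood at 0.41 ± 0.18, Dtx3 at -0.53 ± 0.14 (adjusted p = 0.0045), Dtx2 at 0.48 ± 0.12 (adjusted p = 0.0038) and Dtx1 at 0.21 ± 0.27.

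On the side of NAD, the list of supply genes had 1 gene called higher and 2 lower of 8 tested in Winnie-Prolapse, against 9.84% and 8.47% of all genes. Nampt, the rate-limiting enzyme of NAD salvage, stood at 1.15 ± 0.11 (adjusted p = 1.3e-06), while Naprt, which starts from nicotinic acid, stood at -1.28 ± 0.21 (adjusted p = 0.00012) and Nadsyn1 at -0.71 ± 0.14 (adjusted p = 0.00053). Nadk stood at 0.16 ± 0.11. NAD itself was not measured in these files.

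Markers of cell types also moved with the groups, and in bulk tissue fewer cells of a type and less RNA per cell cannot be told apart. Epithelial markers were present throughout, at a sum of 7996 to 14614 CPM over the 8 genes in single libraries, with none at 0. The sum of 6 pan-leukocyte genes was 51.9 to 295 CPM in C57BL/6, 121 to 279 CPM in Winnie and 162 to 461 CPM in Winnie-Prolapse. In Winnie-Prolapse 2 of the 6 were called higher, against 9.84% of all genes. The sum of 6 T cell genes was 4.48 to 20.1, 11.6 to 32.6 and 15.7 to 43.2 CPM (4 of 6 called higher in Winnie-Prolapse), and that of 5 macrophage genes 28.9 to 69.5, 36.9 to 129 and 92.5 to 211 CPM (5 of 5).

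The sum of 5 neutrophil genes was 0.362 to 2.82, 1.35 to 122 and 64.5 to 1249 CPM (4 of 4 tested were called), with Cxcr2 at 0 in at least 1 C57BL/6 and 1 Winnie library and Retnlg in at least 1 C57BL/6 library. The sum of 5 B cell genes was 91.3 to 393, 356 to 1416 and 828 to 1662 CPM (1 of 5 called higher), and that of 7 proliferation genes 155 to 321, 268 to 713 and 215 to 766 CPM (3 of 7). The sum of 5 smooth muscle genes went the other way, 5863 to 10503, 1771 to 6318 and 1143 to 2777 CPM (5 of 5 called lower). All these calls stand beside 9.84% of all genes called higher and 8.47% lower in Winnie-Prolapse. In Winnie 0 markers were called, and the second limit was passed higher by 5 of 6 T cell and 6 of 7 proliferation genes. It was also passed higher by 2 of 5 macrophage, 2 of 2 tested neutrophil, 1 of 6 pan-leukocyte, 1 of 5 B cell and 1 of 8 epithelial genes. All 5 smooth muscle genes passed it lower, and the shares of all genes were 7.42% higher and 8.53% lower. The part of these cell types in the rise of the members was not tested.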

How the data were processed

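RNA of distal colon was sequenced by the authors from stranded poly(A) libraries in paired ends. According to the study's methods the RNAsik pipeline was run on GRCm38 and reads were counted per gene with featureCounts, and the submitters' processing notes also name STAR and limma. The deposited values are raw counts, as whole numbers per gene, with no normalization. How reads that fall on more than 1 gene were assigned, the strand setting and the annotation release were not given in the sources used here, which affects overlapping genes such as Parp9 and Dtx3l.

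Tests of the counts used edgeR 4.0.16 under R 4.3.3 (quasi-likelihood F test, TMM normalization, filterByExpr), with each pair of groups in a fit of its own and Benjamini-Hochberg adjustment over all genes tested. All 10 members passed the filter in each fit. The SE of a log2 fold change is its size divided by the square root of F, and intervals are 1.96 SE on either side. A gene was called at an adjusted p under 0.001 and at least 1.5-fold, and a second limit was 0.05. CPM were the counts over library totals, and log2 CPM had a prior count of 2. Exon lengths came from GENCODE M21 on GRCm38. Ratios (0.5 counts added, 6 tests) and relations within groups (9) were tested by two-sided exact permutation. Pairs of libraries in a group differed by at least 28.8 in chi-square per degree of freedom, so none was counted as a duplicate. The scripts were tested on simulated data.

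The genes named were all members and other PARP family genes, at most 4 genes of highest mean CPM from each other list with Irf1, Ifng and Parg, and the 5 genes most like Parp9, Parp14 and Parp1. Some genes so chosen are not reported here. Muc2, Ifnb1, Cxcr2, Macrod2 and the chromosome 16 neighbours were named outside this rule, after values were seen. The members and lists were chosen with earlier results of these data known. Hpf1 was matched by an older symbol. The labels name no batch, and replicate numbers follow the sample order and pair no mice. The study drew on fewer Winnie libraries for its colon comparison. Which library it left out is not given in the sources used here, so all 7 were used. Alternatives were library totals without TMM, DESeq2 1.42.0, limma-voom (limma 3.58.1), a bias-adjusted edgeR fit, other low-count filters, sex as a covariate, 1 sex alone, all 3 groups in one fit, milk protein genes removed and each library left out.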

Additional observations from a re-analysis of the deposited data

Results flagged for a closer look

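Among 57 groups of values (members, other PARP family genes and the 2 ratios), 2 held a library far from the others by Dixon's test, where chance flags about 1 group in 20. Parp8 was 8.33 CPM in Winnie replicate 2, against 4.63 CPM in the next highest Winnie library. The log2 ratio of Parp9 to Dtx3l was -0.77 in Winnie replicate 3, against -0.33 in the next lowest. In a further 3 results every male of a group lay on one side of the mean of the males of the other group and every female on the opposite side of the mean of the females. The difference between the sexes within each of these comparisons was not tested on its own, and the sex by group interaction over the 3 groups had an adjusted p of 0.41 for Parp1, 0.45 for Parp8 and 0.28 for Dtx3l in edgeR. Against C57BL/6, Winnie males were higher by a mean of 6.88 CPM for Parp1 and 2.51 CPM for Parp8, and Winnie females were lower for both. For Dtx3l, Winnie-Prolapse males were lower than Winnie males by a mean difference of -35.9 CPM, and females were higher. In edgeR fits of 1 sex alone, Winnie against C57BL/6 gave Parp1 a log2 fold change of 0.32 in males (adjusted p = 0.053) and -0.15 in females (adjusted p = 0.50), and Parp8 0.90 in males (adjusted p = 0.044) and -0.16 in females (adjusted p = 0.71). Winnie-Prolapse against Winnie gave Dtx3l -0.28 in males (adjusted p = 0.82) and 1.15 in females (adjusted p = 0.061).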

How the results depend on the processing

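No paired analysis was possible because replicate numbers follow the order of the sample list and mark no shared mouse, litter or batch. In Winnie against C57BL/6 the count of 0 called members became 5 with DESeq2, 1 with no low-count filter (Parp12; 0.219% of all genes higher), 1 with all 3 groups in one fit (Parp9; 0.979%) and 3 in males alone (0.637%), and leaving out 1 library gave 0 to 4, the 4 without Winnie replicate 5. The 5 members at the second limit became 0 in females alone (0.00579% of genes higher) and 7 in males alone (11.8%), where Parp8 and Parp11 joined. In Winnie-Prolapse against C57BL/6 the 7 called members became 3 in males alone (1.43% of all genes higher) and 4 in females alone (1.28%), where fewer libraries entered the fit, 6 with limma-voom (8.98%) and with library totals (8.02%), both without Parp8, and 5 to 7 with 1 library left out. The losses with 1 library left out were Parp12 (without C57BL/6 replicates 1 to 6 or 8 or Winnie-Prolapse replicates 1, 3, 5 or 7, adjusted p 0.0010 to 0.0023) and Parp8 (without C57BL/6 replicates 2, 3, 4 or 8 or Winnie-Prolapse replicates 5 or 7, 0.0010 to 0.0013). In Winnie-Prolapse against Winnie the 0 members at the second limit became 2 with DESeq2 (7.88% of all genes higher) and with all 3 groups in one fit (6.06%), Parp3 and Parp8 in both, 3 in females alone (8.09%), and 0 to 2 with 1 library left out (1 without Winnie replicate 1, 2 without Winnie replicate 2 and 1 without Winnie-Prolapse replicate 3, with 3.87%, 6.45% and 6.03% of all genes higher). The interaction gave 1 member with DESeq2 and 0 to 2 with 1 library left out, the 2 without Winnie replicate 7. The cause of these changes was not tested.

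Directions turned for values that were not called. Parp1 in Winnie against C57BL/6 was -0.0021 without TMM and -0.15 in females, where Parp8 was -0.16. Parp1 in Winnie-Prolapse against C57BL/6 was -0.068 without TMM and -0.019 with limma-voom, and -0.067 to 0.087 with 1 library left out. Against Winnie, Parp1 was 0.16 in females and -0.152 to 0.0022 with 1 library left out, and in males Parp9 was -0.053, Parp14 -0.23 and Dtx3l -0.28. The log2 ratio of Parp9 to Dtx3l had a difference of -0.022 to 0.078 in Winnie against C57BL/6, -0.089 to 0.012 in Winnie-Prolapse against C57BL/6 and -0.114 to 0.0095 in Winnie-Prolapse against Winnie with 1 library left out. Of 760 refitted log2 fold changes of members, 704 kept their direction and side of the first limit. Mean CPM moved by less than 1 SD in 250 of 250 recalculations, most of which left out 1 library. Leaving out 1 library cannot move a group mean by 1 SD, so no conclusion is drawn from that count. Calls in the other lists moved in 15 of 84 recalculations. In Winnie-Prolapse against C57BL/6 they were 1 to 3 for ADP-ribose removal, 1 to 4 for pan-leukocyte genes and 3 to 6 for proliferation genes. There 8.02% of all genes were called higher with library totals and 11.9% with DESeq2. In Winnie against C57BL/6 they went from 0 to at most 5, in the interferon pathway list.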
